A study of Rattus norvegicus with 8 samples.

Results

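The genes described here are 8 regulators of sterol supply: Srebf1, Srebf2, Insig1, Insig2, Scap, Stard4, Npc1 and Mylip. They were picked by symbol from a deposited table of 16871 genes, and all 8 were found and passed the filter on low counts. The assay was BrU-seq: living cells take up bromouridine for a short time, an antibody pulls down the RNA made during that time, and this nascent RNA is sequenced. Primary neurons were prepared from the cortex and hippocampus of Sprague Dawley rat pups aged P1-P2 and grown for 14 days before the first treatment. Every group received a first treatment of 24 h, a washout of 48 h and a second treatment of 4 h on day 17, with 2 mM BrU in the medium for the last 30 min. Each treatment was either 1 µM tetrodotoxin (TTX), which blocks voltage-gated sodium channels and so stops action potentials, or its water vehicle. HT had vehicle and then TTX, TT had TTX in both periods, TH had TTX and then vehicle, and HH had vehicle in both. The sample titles name hippocampal neurons alone. There were 2 libraries per group, and the labels do not say whether these came from separate cultures, so the p-values measure the spread between libraries, which may be technical.

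SREBP transcription factors are made as precursors in the membrane of the endoplasmic reticulum. When membrane sterol is low, the escort protein encoded by Scap carries them to the Golgi, where proteases release the active part; when sterol is plentiful, the proteins encoded by Insig1 and Insig2 hold the complex back. The active factors switch on genes of cholesterol and fatty acid synthesis and of lipoprotein uptake, and Insig1 is itself among their targets, which closes a feedback loop. Brain cholesterol is made locally, since lipoproteins of the blood hardly cross into the tissue, and neurons receive part of theirs from astrocytes.

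Library totals ran from 3489176 to 4959887 counts. The cultures held RNA of several cell types: the summed level of 9 neuron markers lay between 4309 and 6752 CPM (read counts scaled to a common library size, here with TMM factors), that of 9 astrocyte markers between 1467 and 2098, that of 14 oligodendrocyte lineage markers between 736 and 1761 and that of 8 microglia markers between 10.9 and 17.1. HH replicate 1 stood apart from the other 7 libraries. It had the highest value of each of 15 activity-response genes (among them Fos, Arc and Bdnf). Their summed level was 1524 CPM there, against 644 CPM in HT replicate 1 and 444 to 477 CPM in the others. For the main values that rest on HH replicate 1, the value without it is given too. In edgeR's quasi-likelihood test with Benjamini-Hochberg adjustment, 0 of the 11372 genes tested passed an adjusted p of 0.05 in any of the 7 comparisons, so percent called was 0 in each, and none of the 8 genes is described as changed. DESeq2 and edgeR without the filter called 11 and 16 genes in 1 comparison, the second TTX averaged over history, and none of the 8 was called there.

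After the second TTX the 8 genes did not move as a block. Insig1 and Stard4 were lower in all 4 libraries that had just received TTX than in all 4 that had received vehicle, while Srebf1 was higher in all 4. The other 5 genes overlapped between these sets of libraries. Averaged over history, 3 of the 8 had an unadjusted p under 0.05 (edgeR), against 6.94% of all genes tested, and the median log2 change of the 8 was 0.029, against -0.0011 for all genes. Libraries did not overlap, with TTX below vehicle, for 1.64% of all genes, and with TTX above vehicle for 2.69%.

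**Figure D1:**
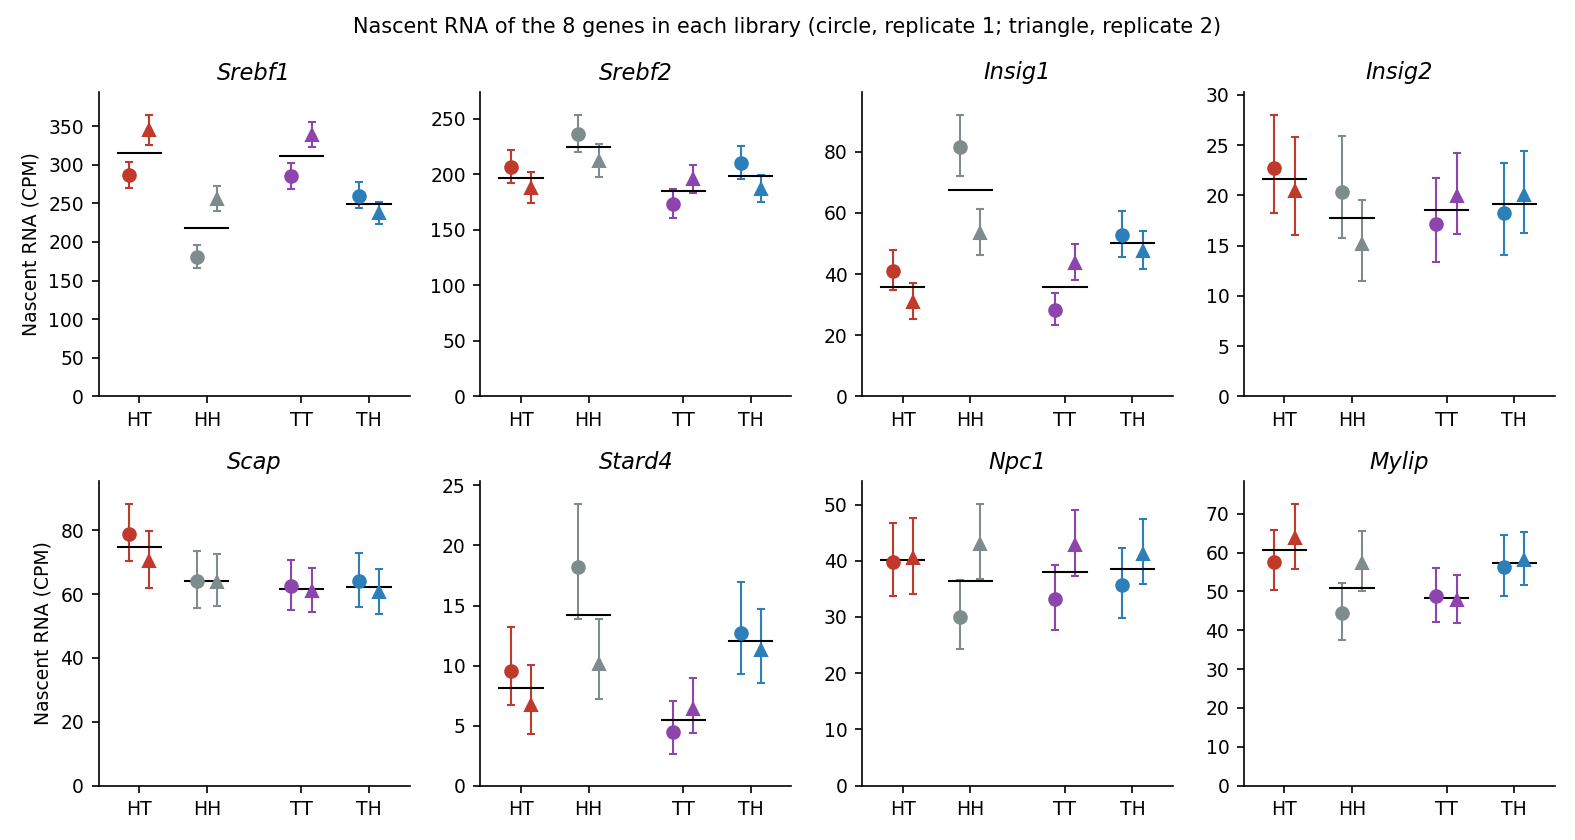
Nascent RNA of the 8 genes, in CPM on linear axes from 0, for HT, HH, TT and TH. Circles are replicate 1, triangles replicate 2, bars the exact 95% Poisson interval of the count, and black lines the group mean; Insig1 and Stard4 are lower and Srebf1 higher in HT and TT than in HH and TH.

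Insig1 encodes the sterol-sensing anchor that is induced by the SREBPs it restrains. It stood at 40.9 and 30.9 CPM in HT, against 81.7 and 53.5 CPM in HH. In TT it stood at 28.2 and 43.6 CPM, against 52.8 and 47.6 CPM in TH. Neither pair of groups overlapped, but TT replicate 2 came close to TH replicate 2, and the Poisson intervals of those libraries, 38.0 to 49.8 and 41.7 to 54.0 CPM, overlapped. The log2 fold change was -0.90 ± 0.26 (SE, n = 2 libraries per group) in HT against HH (edgeR adjusted p = 0.637) and -0.47 ± 0.25 in TT against TH (adjusted p = 1.00). Averaged over history it was -0.69 ± 0.18 (adjusted p = 0.345), which is a ratio of 0.621. The HT against HH value was -0.57 ± 0.24 without HH replicate 1, over 1.5 times smaller in size, and the average was then -0.52 ± 0.16. With HT replicate 1 left out as well, the HT against HH value was -0.79 and the average -0.63. The TT against TH value rests on the TT libraries, at -0.21 without TT replicate 1 and -0.83 without TT replicate 2.

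Windows of 300 bases around annotated transcription starts (250 before, 50 after) are shown for Insig1, Srebf2 and Srebf1. These are the feedback gene and the factors themselves, picked because their average changes were not all on one side of 0. Insig1 and Srebf2 lay below it, at -0.69 and -0.14, and Srebf1 above it, at 0.43, and Srebf2 was within 2 SE of 0. The windows come from RefSeq, build GRCr8, whereas the counts were made on rn6. Of the 8 genes 7 had a window, all but Stard4. Capitals mark matches to 3 motifs, searched on both strands: the sterol regulatory element in a short form, TCACNCCA, the E-box CACGTG, which SREBPs also bind, and the CCAAT box, which binds the partner factor NF-Y and reads ATTGG on the other strand. The motifs found did not overlap one another in these windows.
Insig1, chr4:8057720-8058019, minus strand: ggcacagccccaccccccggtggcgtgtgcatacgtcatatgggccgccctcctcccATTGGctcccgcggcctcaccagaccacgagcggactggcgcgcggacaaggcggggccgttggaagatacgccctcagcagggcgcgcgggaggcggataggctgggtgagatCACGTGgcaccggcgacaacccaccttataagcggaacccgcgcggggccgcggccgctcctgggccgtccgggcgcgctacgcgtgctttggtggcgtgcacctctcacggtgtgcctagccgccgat
Srebf2, chr7:115543057-115543356, plus strand: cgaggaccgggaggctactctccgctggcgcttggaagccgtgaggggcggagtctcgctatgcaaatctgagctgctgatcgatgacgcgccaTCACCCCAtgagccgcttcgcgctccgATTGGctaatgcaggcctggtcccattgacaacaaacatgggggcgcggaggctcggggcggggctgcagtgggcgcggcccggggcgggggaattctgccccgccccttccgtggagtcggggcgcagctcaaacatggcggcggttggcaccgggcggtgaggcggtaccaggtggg
Srebf1, upstream start, chr10:45529115-45529414, minus strand: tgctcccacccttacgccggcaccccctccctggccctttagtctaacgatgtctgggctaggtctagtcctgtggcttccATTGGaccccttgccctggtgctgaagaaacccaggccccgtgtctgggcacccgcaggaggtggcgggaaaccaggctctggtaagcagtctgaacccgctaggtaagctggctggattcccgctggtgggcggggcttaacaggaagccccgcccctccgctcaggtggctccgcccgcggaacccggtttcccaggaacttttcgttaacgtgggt
Srebf1, downstream start, chr10:45518961-45519260, minus strand: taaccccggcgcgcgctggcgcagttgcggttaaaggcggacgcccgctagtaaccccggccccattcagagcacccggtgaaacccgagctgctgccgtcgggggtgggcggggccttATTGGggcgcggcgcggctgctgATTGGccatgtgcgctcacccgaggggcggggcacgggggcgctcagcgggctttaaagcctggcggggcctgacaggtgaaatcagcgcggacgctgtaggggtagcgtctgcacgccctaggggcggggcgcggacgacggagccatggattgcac
The E-box of Insig1 began at position -79 from the start and the sterol regulatory element of Srebf2 at -156. TCACNCCA occurred in 3.89% of the 33469 RefSeq windows, CACGTG in 6.42% and CCAAT in 37.5%. The LXR response element, a spaced direct repeat, was searched too, in 1 exact form. It was found in 2 windows (0.00598%), in none of the 7 genes and in 0 of 5 listed LXR genes with a window. A form this rare tells nothing about LXR control of the 7 genes. Of the 7 genes with a window, 1 held TCACNCCA (Srebf2), 2 held CACGTG (Insig1 and Scap) and 5 held CCAAT. Of 15 SREBP-2 target enzymes of cholesterol synthesis with a window, 1 held TCACNCCA, 1 held CACGTG and 12 held CCAAT. The search thus missed TCACNCCA and CACGTG in most listed targets and does not tell targets from other genes. A match is a run of letters in this window and does not show binding, and a window without a match leaves the rest of the gene unsearched.

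Stard4 encodes a small soluble carrier that moves sterol between membranes. It was the gene of the 8 with the widest range, 4.06-fold between its highest and lowest library, and also the one with the fewest counts, 18 to 59 per library. It stood at 9.57 and 6.74 CPM in HT, against 18.2 and 10.2 CPM in HH. In TT it stood at 4.49 and 6.37 CPM, against 12.7 and 11.3 CPM in TH. HT replicate 1 and HH replicate 2 were almost level, with Poisson intervals of 6.74 to 13.2 and 7.23 to 13.9 CPM, whereas TT and TH were well separated. The log2 fold change was -0.77 ± 0.32 in HT against HH (adjusted p = 0.754) and -1.12 ± 0.33 in TT against TH (adjusted p = 1.00). The average was -0.95 ± 0.23 (adjusted p = 0.293), a ratio of 0.519. With HH replicate 1 left out the HT against HH value was -0.31 ± 0.35 and the average -0.72 ± 0.23. Leaving out HT replicate 1 as well put them at -0.59 and -0.86.

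Srebf1 encodes SREBP-1, the factor best known for driving fatty acid synthesis. It stood at 286 and 345 CPM in HT, against 180 and 256 CPM in HH. In TT it stood at 285 and 338 CPM, against 260 and 237 CPM in TH. All 4 libraries given the second TTX lay above all 4 given vehicle, and HH replicate 1 was the lowest. The log2 fold change was 0.53 ± 0.18 in HT against HH (adjusted p = 0.707), 0.33 ± 0.17 in TT against TH (adjusted p = 1.00) and 0.43 ± 0.12 on average (adjusted p = 0.374), a ratio of 1.35. With HH replicate 1 left out these were 0.31 ± 0.17, 0.32 ± 0.14 and 0.31 ± 0.11. Leaving out HT replicate 1 as well put them at 0.43, 0.32 and 0.38. The HT against HH value was 0.80 without HH replicate 2, and the TT against TH value 0.20 without TT replicate 2. In RefSeq the gene overlaps Rai1, and without a stated strand setting reads of the pair cannot be told apart in the overlap. Rai1, chosen after its values were seen, was close to level, at 0.040 ± 0.088 on average. Srebf2, Insig1 and Npc1 overlap entries that were not analysed here (the microRNA gene Mir33, LOC102546740, and Rmc1 with the pseudogene Aktip-ps1).

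Srebf2 encodes SREBP-2, the factor best known for driving cholesterol synthesis and uptake. It stood at 206 and 188 CPM in HT, against 236 and 212 CPM in HH. In TT it stood at 173 and 195 CPM, against 210 and 187 CPM in TH. HT lay below HH without overlap, while TT and TH overlapped. The log2 fold change was -0.18 ± 0.13 in HT against HH, -0.10 ± 0.13 in TT against TH and -0.14 ± 0.092 on average (adjusted p = 0.807), and 2 SE to either side of the average span -0.33 to 0.040. In HT against HH it was -0.10 without HH replicate 1 and -0.12 without HT replicate 2, and TT against TH ranged from -0.19 to -0.023 over single libraries left out. Within single libraries the count of Srebf1 was 1.39 and 1.84 times that of Srebf2 in HT, against 0.764 and 1.21 times in HH. In TT it was 1.64 and 1.73 times, against 1.24 and 1.27 times in TH. This ratio needs no scaling between libraries and was higher in each library given the second TTX than in each given vehicle. It was chosen after the values were seen and was not tested.

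Scap encodes the escort of the SREBPs and Insig2 the second anchor, which unlike Insig1 is not known as an SREBP target. Scap stood at 78.9 and 70.5 CPM in HT, against 64.2 and 63.9 CPM in HH, and at 62.5 and 61.0 CPM in TT, against 64.1 and 60.5 CPM in TH. HT alone stood above the rest, and its log2 fold change against HH was 0.22 ± 0.13 (adjusted p = 0.829) and 0.14 without HT replicate 1. Insig2 stood at 22.8 and 20.5 CPM in HT, against 20.4 and 15.1 CPM in HH, and at 17.2 and 19.9 CPM in TT, against 18.2 and 20.0 CPM in TH. Averaged over history the log2 changes were 0.11 ± 0.089 for Scap and 0.13 ± 0.15 for Insig2, with 2 SE spanning -0.072 to 0.28 and -0.17 to 0.42.

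The anchors thus stood in different proportions. The count of Insig1 was 1.80 and 1.51 times that of Insig2 in HT, against 4.02 and 3.53 times in HH. It was 1.64 and 2.19 times in TT, against 2.89 and 2.37 times in TH. Every library given the second TTX had a lower ratio than every library given vehicle, also among the libraries other than HH replicate 1. This ratio too was chosen after the values were seen and was not tested.

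Npc1 encodes the membrane protein that lets cholesterol out of late endosomes and lysosomes after uptake. It stood at 39.8 and 40.4 CPM in HT, against 29.9 and 43.0 CPM in HH, and at 33.1 and 42.8 CPM in TT, against 35.6 and 41.3 CPM in TH. Both pairs of groups overlapped, and the spread within HH, TT and TH exceeded the differences between group means. The average log2 change was 0.056 ± 0.14 (adjusted p = 0.961).

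Mylip encodes the ubiquitin ligase also called IDOL, which limits lipoprotein uptake and is induced by LXR, the nuclear receptor for oxidised sterols. It stood at 57.7 and 63.7 CPM in HT, against 44.4 and 57.4 CPM in HH. In TT it stood at 48.8 and 47.8 CPM, against 56.4 and 58.1 CPM in TH. HT thus lay above HH and TT below TH, both without overlap, although HT replicate 1 and HH replicate 2 were nearly equal. Taken singly, the first held for 18.6% of all genes and the second for 14.1%, and the share with both was not counted. The log2 fold change was 0.25 ± 0.15 in HT against HH, where it was 0.084 ± 0.16 without HH replicate 1 and 0.45 ± 0.17 without HH replicate 2. It was -0.24 ± 0.15 in TT against TH, and the interaction, which is the difference between these responses, was -0.49 ± 0.21 (edgeR adjusted p = 1.00). An unadjusted p under 0.05 in the interaction was reached by 1 of the 8 genes, Mylip, and by 1.64% of all genes. The interaction was -0.34 ± 0.21 without HH replicate 1, where its unadjusted p no longer fell under 0.05.

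**Figure D2:**
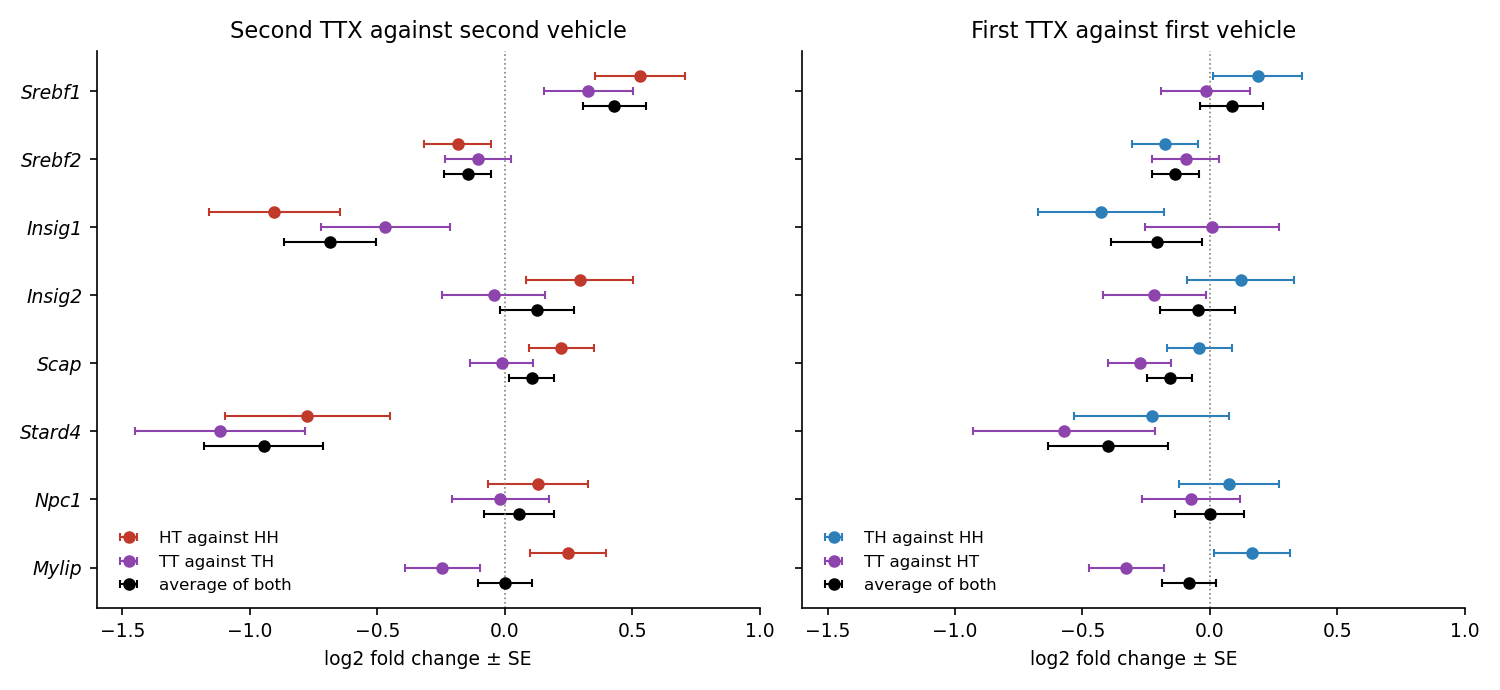
Log2 fold changes of the 8 genes with their SE, for the second TTX (left) and the first TTX (right), with the average over the other treatment in black. Insig1 and Stard4 lie furthest below 0 and Srebf1 furthest above it on the left, and no gene passed the adjusted threshold in either panel.

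The second TTX can also be read separately in each history. In HT against HH, 3 of the 8 genes were lower without overlap and 4 higher, where 16.7% and 18.6% of all genes were, and 3 had an unadjusted p under 0.05, against 6.49% of all genes. In TT against TH, 3 were lower without overlap and 1 higher, where 14.1% and 15.9% of all genes were, and 1 (Stard4) had an unadjusted p under 0.05, against 2.64%. Insig1 and Stard4 were lower without overlap in both histories, a pattern held by 3.12% of all genes. The interaction was 0.44 ± 0.36 for Insig1, -0.34 ± 0.47 for Stard4 and -0.20 ± 0.25 for Srebf1 (adjusted p = 1.00 for each). Over 14 alternatives it ran from 0.080 to 0.72 for Insig1, -0.82 to 0.033 for Stard4 and -0.48 to 0.014 for Srebf1. Each value depends on HH replicate 1. Without that library the HT against HH changes that enter it were smaller in size, at -0.57, -0.31 and 0.31. With HT replicate 1 left out as well, these changes were -0.79, -0.59 and 0.43. For Stard4, 2 SE to either side spanned -1.28 to 0.59.

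The first TTX had ended 48 h before the second treatment. In TH against HH, 2 of the 8 genes (Srebf2 and Insig1) were lower without overlap and 0 higher, where 13.4% and 16.7% of all genes were, and 0 had an unadjusted p under 0.05, against 4.08%. Insig1 stood at 52.8 and 47.6 CPM in TH, against 81.7 and 53.5 CPM in HH, with a log2 fold change of -0.43 ± 0.25 (adjusted p = 0.891). It was -0.093 without HH replicate 1, so this value rests on that library. In TT against HT, 4 (Insig2, Scap, Stard4 and Mylip) were lower without overlap and 0 higher, where 16.2% and 18.2% of all genes were, and 2 had an unadjusted p under 0.05, against 2.35%. These 2 were Scap, at -0.28 ± 0.12, and Mylip, at -0.33 ± 0.15 (adjusted p = 1.00 for each). Averaged over the second treatment, 0 of the 8 genes had an unadjusted p under 0.05 (edgeR), against 5.75% of all genes, and 0 of the 8 were without overlap, where 1.17% of all genes were lower and 1.73% higher. The furthest from 0 was Stard4 at -0.40 ± 0.23 (adjusted p = 0.814), which was -0.17 without HH replicate 1 and -0.59 without HH replicate 2.

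Other genes of sterol control are set beside the 8, from lists that were chosen with earlier results of these data known. Of 12 partners of SREBP processing and turnover, 9 were in the table and tested, and these include the proteases Mbtps1 and Mbtps2. Averaged over history 4 of the 9 lay below 0 and 5 above, with a median log2 change of 0.0040 after the second TTX and none with an unadjusted p under 0.05. With HH replicate 1 left out, which for the lists was chosen after the data were seen, 6 of the 9 lay below 0, with a median of -0.027. Their smallest p belonged to Pgrmc1, a membrane haem-binding protein reported to bind Scap and Insig1, at -0.16 ± 0.093 (adjusted p = 0.774). The ubiquitin ligase gene Rnf139 stood at -0.14 ± 0.14 and Erlin1, whose product sits in the endoplasmic reticulum membrane, at 0.16 ± 0.17. The other 3 listed partners were not analysed here.

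Of 15 further genes of sterol uptake and transfer, 12 were tested, with 4 below 0, 8 above and a median of 0.12. The median was 0.035 without HH replicate 1, with 5 below 0, and -0.0036 with HT replicate 1 left out as well, with 6 below 0. Npc1l1, an intestinal sterol transporter related to Npc1, stood at -0.29 ± 0.18, and Lrp1, a large endocytic lipoprotein receptor, at 0.17 ± 0.093.

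All 20 enzymes of cholesterol synthesis on the list of SREBP-2 targets lay below 0 on average, with a median of -0.46 and 12 lower at an unadjusted p under 0.05, where 50.3% of all genes lay below 0 and 2.59% were lower at that p. The 3 of smallest p were Hmgcs1, which makes the precursor of mevalonate, at -0.66 ± 0.11, the sterol oxidase gene Msmo1 at -0.52 ± 0.12 and the isoprenoid isomerase gene Idi1 at -0.70 ± 0.18 (adjusted p = 0.192, 0.280 and 0.297). Leaving out HH replicate 1 left all 20 below 0, with a median of -0.36. Of 11 tested genes of fatty acid synthesis on the list of SREBP-1 targets, 10 lay below 0, with a median of -0.11, while Srebf1 itself was higher. At an unadjusted p under 0.05 (edgeR) only 1 of the 11 was lower and 1 higher, and Elovl6 was almost level at -0.00058. Examples from this list were Fads2, a fatty acid desaturase, at -0.26 ± 0.089, Acss2, an acetyl-CoA synthetase, at -0.22 ± 0.10, and Gpam, which starts glycerolipid synthesis, at 0.29 ± 0.091. Of 5 tested LXR genes, 4 lay above 0, where 49.7% of all genes did, with a median of 0.19, and Abca1, the cholesterol exporter that LXR induces, stood at 0.32 ± 0.10 (adjusted p = 0.461). Apoe, the main lipoprotein component made by astrocytes, stood at 0.21 ± 0.12 and the receptor gene Nr1h2 at 0.19 ± 0.18. Srebf1 and Mylip, which are also LXR targets, are not counted in that list.

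**Figure D3:**
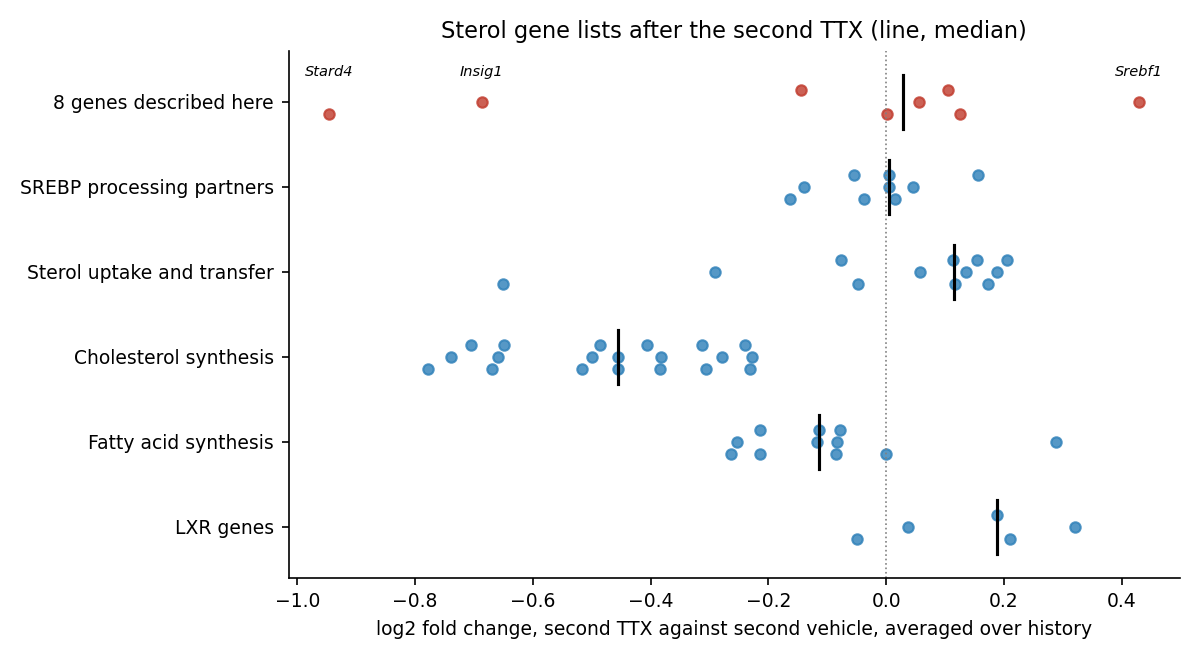
Log2 fold change after the second TTX, averaged over history, for each tested gene of 6 groups (points) with the group median (line). All 20 cholesterol synthesis genes lie below 0, with a median of -0.46, while the processing partners centre on 0.0040 and Srebf1 stands at 0.43.

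Markers of other cells differed between the same libraries. In HT the 8 markers of dividing cells summed to 203 and 266 CPM, against 148 and 149 CPM in HH, and in TT to 225 and 236 CPM, against 149 and 180 CPM in TH. All 8 had an average log2 change above 0, as did 11 of 12 tested oligodendrocyte lineage markers and 8 of 9 astrocyte markers, whereas 9 of 9 neuron markers lay below 0. Within single histories the neuron markers were less uniform, with 5 below and 4 above 0 in HT against HH and 7 and 2 in TT against TH. Their sum was highest in HH replicate 1, at 6752 CPM, against 4309 to 5210 CPM in the other libraries. Oligodendrocyte lineage markers summed to 1056 and 1053 CPM in HT, against 736 and 740 CPM in HH, and to 1104 and 1761 CPM in TT, against 927 and 1141 CPM in TH. No marker on these lists was at 0 in every library. In cultures of mixed cells, fewer cells of a type and less RNA per cell cannot be told apart, and the part of these markers in the levels of the 8 genes was not tested.

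Genes with the profile most like that of each of the 8 were found by the root-mean-square difference of log2 CPM over the 8 libraries, after centring each gene on its own mean. The gene nearest to Insig1 among the 11371 others was Cyp51, which encodes lanosterol demethylase, at a difference of 0.045, where Insig1 itself varied by 0.45 around its mean. Cyp51 stood at 59.8 and 44.9 CPM in HT, against 121 and 74.1 CPM in HH, and at 40.1 and 61.0 CPM in TT, against 70.4 and 68.6 CPM in TH. Both genes thus shared the high HH replicate 1 and the TT replicate 2 that lay above TT replicate 1. Cyp51 was also the nearest gene without HH replicate 1, at 0.042. The next nearest were Sp7 at 0.13 and Gad1, which encodes a GABA-synthesising enzyme, at 0.14.

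Cyp51 and Insig1 were also among the 3 genes nearest to Stard4, at 0.23 and 0.24, where Stard4 itself varied by 0.56 around its mean. Both places rest on HH replicate 1. Without that library the 3 nearest were Steap2, Mnda and Coa3, and Cyp51 was the 17th nearest. For Srebf1 the nearest were Zfp13, Tbc1d2 and Appl2, at 0.077 to 0.094, and for Mylip they were Tars2, Pelp1 and Prpf4, at 0.044 to 0.059. None of the 3 nearest to Srebf1 stayed among its 3 nearest without HH replicate 1, and of those of Mylip only Tars2 did. All of these differences were taken over the same libraries, so a library that stands apart enters every pair.

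**Figure D4:**
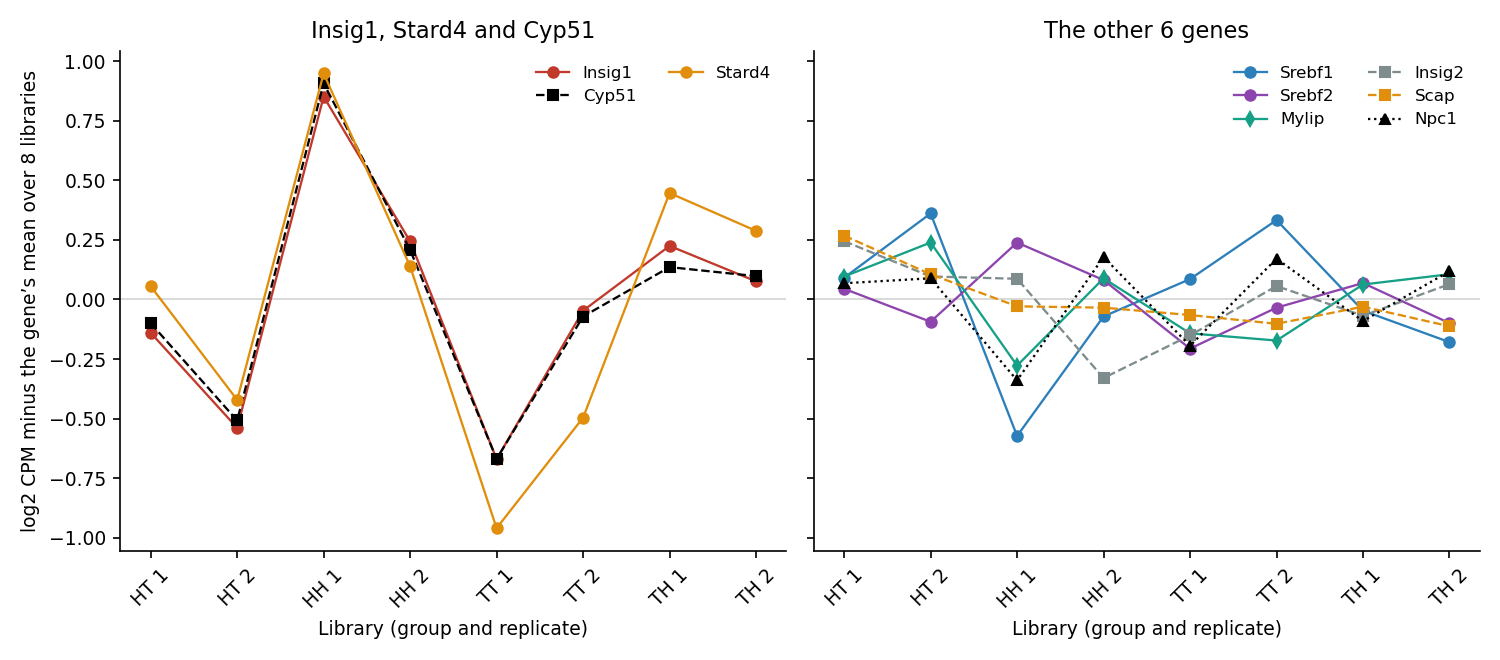
Log2 CPM of single genes minus their own mean over the 8 libraries, by library, for Insig1, Stard4 and Cyp51 (left) and for the other 6 genes (right); lines only join the points of a gene. Insig1 and Cyp51 almost coincide, and HH replicate 1 is the highest library on the left and the lowest for Srebf1, Npc1 and Mylip on the right.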

How the data were processed

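The authors deposited 1 table of raw read counts for 16871 gene symbols. Per the submitters' processing notes, the tools were FastQC, TopHat2, Bowtie2 and featureCounts, and the build rn6. Their versions, the annotation and the strand and intron settings are not stated, and counting exons alone would lower nascent counts of genes with long introns. Columns were tied to samples through the leading number of the description, which left 2 columns unmatched and unused. Groups and replicate numbers come from the titles.

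The deposited counts were tested in edgeR 4.0.16 (R 4.3.3) with TMM scaling, the filterByExpr filter (11372 genes, 67.4%, kept), a model of 4 group means over all 8 libraries and the robust quasi-likelihood test, adjusted over all genes tested. SE is the size of the log2 change divided by the root of F and rests on the spread in all 4 groups. The 7 comparisons were 4 pairs of groups, 2 averages and the interaction. DESeq2 1.42.0, limma-voom (limma 3.58.1), other scaling, no filter, a replicate block, only the groups compared and left-out libraries were alternatives. The fit was tested on simulated data, with 200 changed genes in each of 10 simulations. Of 1.5-fold changes it recovered 13.7% in HT against HH, 15.2% in TT against TH and 47.9% in the average of the second TTX. Of 2-fold changes it recovered 60.9%, 65.7% and 85.8%. False calls made up 6.73%, 9.18% and 6.39% of calls. Real changes of such sizes can thus go uncalled. The 95% Poisson intervals cover counting error only. CPM are shares of a library, so a shift of all transcription at once is not seen. The 8 genes and the lists were chosen with earlier results of these data known. Named genes are the 8, the 3 members of each pathway list with the smallest p in the average of the second TTX, and the 3 genes nearest in profile to each of the 8; others are marked or serve as examples, and some genes chosen this way are not given here.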

Additional observations from a re-analysis of the deposited data

Results flagged for a closer look

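Mylip was singled out because its libraries moved in opposite directions in the 2 histories: both HT libraries lay above both HH libraries, and both TT libraries lay below both TH libraries. Of all genes, 18.6% lay higher without overlap in HT against HH and 14.1% lower in TT against TH. The share of genes with both was not counted. The HT against HH side rests on HH replicate 1, since the log2 change there was 0.25 with that library and 0.084 ± 0.16 without it. That change was 0.15 with HT replicate 1 left out as well. The difference between the responses was -0.49 on the log2 scale, with an SE of 0.21 and an edgeR adjusted p of 1.00. It ranged from -0.69 to -0.34 over 14 alternatives.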

How the results depend on the processing

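Counting error limits Stard4 most, with 18 to 59 counts per library. Of 816 log2 changes of the 8 genes under alternatives, 760 kept their direction and side of the threshold, 56 turned direction and 0 passed. After the second TTX, Srebf1, Srebf2, Insig1 and Stard4 kept their direction in every alternative, in both histories and on average. The number of genes called was 16 without the filter and 11 in DESeq2 for the average of the second TTX. With 1 library left out it ran from 0 to 39 in HT against HH, 0 to 1 in TT against TH, 0 to 8 in the average, 0 to 121 in TH against HH, 0 to 104 in the history average and 0 to 2 in the interaction. Apart from TT against TH, where the 1 came without TH replicate 2, each highest number came without HH replicate 2. HH replicate 1 then stands alone in its group, its spread is taken from the other groups, and the cause was not tested. Fits on only the groups compared were not run for the averages and the interaction.

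Replicate numbers were not taken as pairs: deviations from the group means correlated at -0.066 to 0.45 between groups, the highest between HH and HT. A replicate block left the number of genes called at 0 in each of the 7 comparisons and turned Npc1 in the history average to -0.0053. That value was -0.0058 with DESeq2 size factors and -0.0057 in DESeq2, where Mylip in the average of the second TTX was -0.0053 and -0.0037. Limma-voom put Insig1 in TT against HT at -0.0050. With HH replicate 1 and HT replicate 1 left out together, Npc1 stood at -0.090 in HT against HH, -0.057 in the average of the second TTX, -0.15 in TH against HH, -0.12 in the history average and 0.067 in the interaction. Mylip stood at -0.050 in the average of the second TTX and at -2.0e-05 in TH against HH, Srebf1 at -0.038 in TH against HH and -0.094 in the history average, Stard4 at 0.24 in TH against HH, and Insig1 at 0.067 and Insig2 at 0.10 in the history average.

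With single libraries left out, values that turned direction ranged as follows. In HT against HH Npc1 ran from -0.097 to 0.42. In TT against TH Insig2 ran from -0.16 to 0.047, Scap from -0.054 to 0.024 and Npc1 from -0.22 to 0.14. In the average of the second TTX Npc1 ran from -0.061 to 0.20 and Mylip from -0.084 to 0.099. In TH against HH Srebf1 ran from -0.038 to 0.46, Insig2 from -0.085 to 0.35, Scap from -0.080 to 0.00089, Stard4 from -0.60 to 0.24 and Npc1 from -0.15 to 0.37. In TT against HT Srebf1 ran from -0.14 to 0.12, Insig1 from -0.35 to 0.27 and Npc1 from -0.27 to 0.089. In the history average Srebf1 ran from -0.031 to 0.22, Insig2 from -0.15 to 0.061, Npc1 from -0.12 to 0.15 and Mylip from -0.17 to 0.018. In the interaction Srebf1 ran from -0.48 to 0.014, Srebf2 from -0.0094 to 0.16, Stard4 from -0.82 to 0.033 and Npc1 from -0.44 to 0.074.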

Other observations

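For Srebf2 the 3 genes nearest in profile were Sec14l1, Ppp1cc and Rragd at root-mean-square differences of 0.041 to 0.045, for Scap Mgat4a, Sdhb and Kif21b at 0.041 to 0.051, for Insig2 Hacd1, Ccm2 and Extl3 at 0.057 to 0.066 and for Npc1 Maf1, Slc25a30 and Klf11 at 0.061 to 0.078. Srebf2, Scap, Insig2 and Npc1 themselves varied by 0.12 to 0.18 around their means, so the differences are a larger share of their variation than for Insig1 and Cyp51. Without HH replicate 1 none of these neighbours stayed among the 3 nearest except Hacd1 for Insig2.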
